A study of Mus musculus with 12 samples.

Results

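The transcriptome of resting splenic B cells was compared between mice with and without B-cell deletion of Sub1, before any differentiation stimulus was given. The comparison rests on 6 of the 12 arrays of the series, 3 from knockout and 3 from control mice, chosen by their sample labels. Sub1 encodes PC4, a chromatin protein and transcriptional coactivator that binds single-stranded DNA. All animals carried B1-8hi, a knock-in immunoglobulin heavy chain whose antibodies bind the hapten NP, and floxed Sub1 alleles (Sub1fl/fl). Control mice had the genotype B1-8hi:Sub1fl/fl, and knockout mice the genotype B1-8hi:Sub1fl/fl-Mb1-Cre. Mb1-Cre is a recombinase gene inserted into Cd79a, so it acts from early B-cell development onward and takes up 1 copy of Cd79a. No control carried Cre, so loss of Sub1, presence of Cre and the insertion in Cd79a cannot be told apart. The cells are labelled naïve and without stimuli. The other 6 arrays come from the same genotypes after 72 h with NP-ficoll, CD40 ligand and the interleukins IL-5, IL-4 and IL-2, and enter only the estimate of spread and the comparison of states. The labels give no age, sex or sorting step, and leave it unsaid whether each replicate is another animal. The p-values therefore cover only how far these samples spread, which may be partly technical. Control replicate 1 differed from the other resting arrays in sex-linked genes, so the control arrays do not all come from the same animal.

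Resting B cells of the spleen are mostly follicular cells, with a smaller pool of marginal zone cells that lie beside the blood sinus. Marginal zone cells depend on Notch2 signalling, carry much of the complement receptor CR2 (CD21) and are held in place by receptors for sphingosine 1-phosphate and by integrins. Migration and positioning of both kinds of cell need Rac, a small GTPase switched on in lymphocytes chiefly by the exchange factor DOCK2. The spleen's red pulp also holds macrophages that clear old red cells, break down their haem and export the iron.

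Values are log2 signals relative to each array's 75th percentile, 1 unit being a factor of 2 in signal, and they can be compared between arrays for a gene but not between genes. Of 22981 features tested (12295 named genes and 10686 probes with no gene name), 3 passed an adjusted p of 0.05 in limma with Benjamini-Hochberg adjustment, which is 0.0131% of all. Of these, 2 were higher in knockout cells (0.0087%) and 1 was lower (0.00435%). At an unadjusted p under 0.05 there were 4534 features (19.7%). The 3 knockout arrays lay wholly above the 3 control arrays for 9.73% of features and wholly below for 26.7%. With slide as a block 12 features passed, and a fit on the 6 resting arrays alone passed 0, with 5407 at an unadjusted p under 0.05.

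Several properties of the arrays bear on every value. Slide 1 carried replicates 1 and 2 of each group, slide 2 carried replicate 3, and on slide 1 the genotypes lay in different rows, so row and genotype cannot be told apart there. Spots well above background made up 41.8% to 64.1% on control arrays and 40.5% to 76.6% on knockout arrays, and median intensity was higher on all knockout arrays (63.7 to 88.1) than on all control arrays (27.8 to 52.1). The array of control replicate 1 had signal for the Y-linked Ddx3y (2.32) and Eif2s3y (2.62) and none above background for Xist (-4.42 and -4.18 on its probes), unlike the other 5 resting arrays. This is the pattern of male cells, so sex differed among the control arrays. Without control replicate 1, 10.9% of features lay wholly above and 28.9% wholly below, and 1 feature passed the adjusted threshold. Correlations between arrays were 0.962 to 0.967 within control, 0.947 to 0.957 within knockout and 0.910 to 0.980 between the groups. Some arrays of different genotype were therefore more alike than arrays of the same genotype. The highest value, 0.980, joined control replicate 3 and knockout replicate 3, the only resting arrays on slide 2.

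The size of a change depended on how bright the feature was. In the dimmest 10% of features the median change, knockout minus control, was 0.80, and in the brightest 10% it was -0.38, with -0.21 over all features. Quantile normalization, which gives all arrays one distribution of signal, left medians of 0.19 and -0.02 in these dimmest and brightest features and -0.05 over all, and then 7.59% of features lay wholly above and 14.2% wholly below. In the brightest 10% of features 51.1% lay wholly below, so counts in lists of bright genes are to be read against that share as well as against all features. Under this scaling 34 features passed the threshold, 23 higher and 11 lower, against 45 higher and 6 lower when the percentile was taken over probes detected on all arrays.

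**Figure D1:**
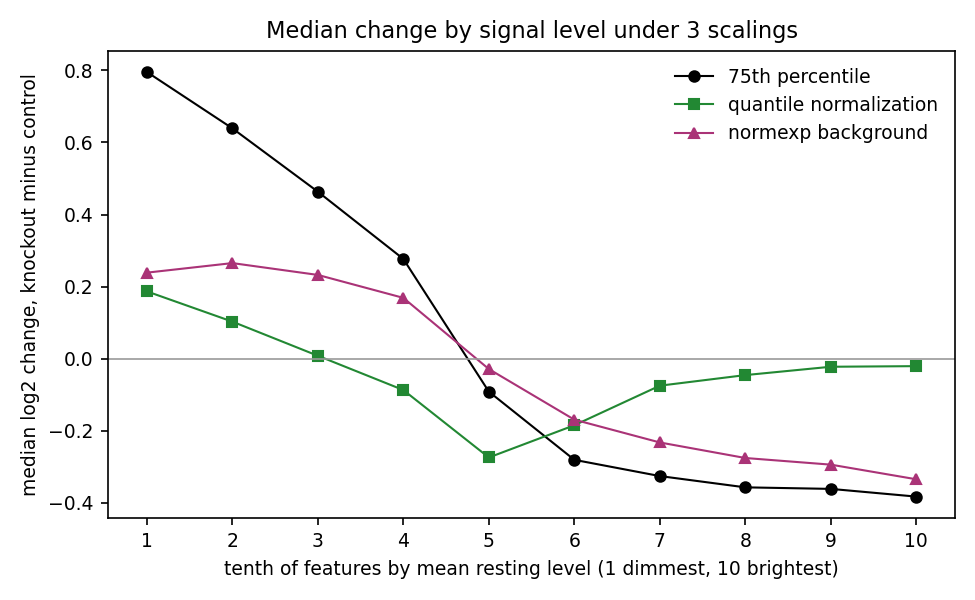
Median log2 change, knockout minus control, for 10 equal bins of the tested features ordered by mean resting level, under 3 scalings of the same arrays. With the 75th percentile the median runs from 0.80 in the dimmest bin to -0.38 in the brightest, while quantile normalization leaves 0.19 and -0.02.

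The targeted gene came first. Sub1 read 6.07, 6.02 and 6.0 in control replicates 1, 2 and 3 and 5.37, 5.80 and 5.77 in the knockout replicates. The groups did not overlap, but the change of -0.38 ± 0.19 (SE, n = 3 and 3) equals the median of the brightest 10%, did not pass (adjusted p = 0.268) and was -0.02 after quantile normalization. A dimmer Sub1 probe read 0.20, -0.25 and -0.78 in control and -1.51, -0.62 and -1.29 in knockout cells, which overlapped, with a change of -0.86. The position of these probes relative to the floxed exons is not given in the sources used here, so the arrays do not check the deletion in resting cells. After stimulation the same Sub1 probe was lower by -1.21 (adjusted p = 0.0114), and the difference between the states did not pass (adjusted p = 0.269).

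Cd79a hosts Cre and encodes a signalling subunit of the antigen receptor. It read 4.76, 4.66 and 4.26 in control and 3.05, 3.0 and 2.99 in knockout cells. Every knockout array was lower than every control array, and the change was -1.54 ± 0.24, or 2.92-fold. It missed the threshold (adjusted p = 0.0948) and passed in 7 of 24 alternative settings, among them quantile normalization (-1.27, adjusted p = 0.0374), but in none of the 12 fits that left out an array. The change was -1.68 on slide 1 and -1.27 on slide 2. Its partner Cd79b, which shares the receptor complex, read 9.08, 8.85 and 9.23 in control and 8.62, 8.55 and 8.90 in knockout cells, with overlap and a quantile-normalized change of 0.01.

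Dock2 had the smallest adjusted p of all features. DOCK2 activates Rac in lymphocytes, and mice without it are known to have few marginal zone B cells and poor lymphocyte migration. Its bright probe read 1.95, 2.11 and 1.87 in control and -0.12, -0.34 and -0.07 in knockout cells. The groups were far apart, and Dock2 fell by 2.16 on the log2 scale (SE 0.18, 4.46-fold, adjusted p = 0.00326). Slide 1 alone gave -2.26 and slide 2 alone -1.94. A second Dock2 probe read 0.79, 0.34 and 0.64 in control and -2.71, -2.40 and -1.38 in knockout cells, a change of -2.75 (adjusted p = 0.0542 with every probe tested on its own). The Dock2 call held without each array in turn and was lost in 2 of 24 alternative settings, the fit on 6 arrays (adjusted p = 0.129) and no filter on dim probes (0.0734). After stimulation the difference was smaller (-0.71, adjusted p = 0.0555), and the difference between the states did not pass (1.45, adjusted p = 0.0638). A Dock2 variant is known in some commercial C57BL/6 stocks, and the labels give no Dock2 genotype.

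Of 14 genes of the DOCK and ELMO family, the exchange factors and their partners, 10 were tested. Dock2 was the 1 called. Of the 10, 2 lay wholly above (9.73% over all features) and 3 wholly below (26.7%). The median change was 0.01 against -0.21 over all features. Dock10 and Dock11, exchange factors of Cdc42, gave -0.64 and -0.48 (-0.30 and -0.13 after quantile normalization). Dock5 was 1.08 higher and did not pass (adjusted p = 0.272). Rac2, the Rac form of blood cells, was 6.64 ± 0.12 in control and 6.23 ± 0.05 in knockout cells (SD, n = 3 each), with a quantile-normalized change of -0.04.

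**Figure D2:**
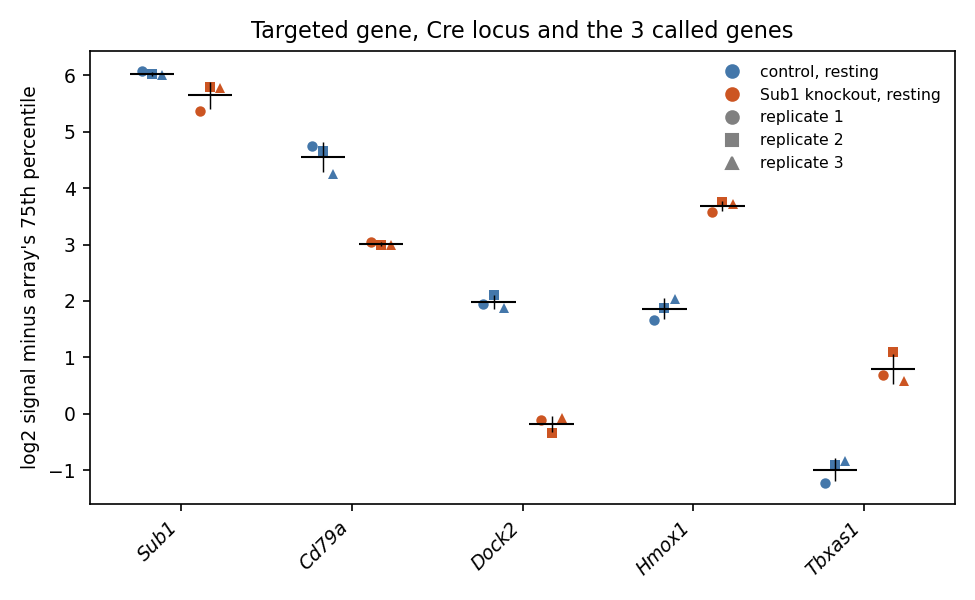
Log2 signal relative to the array's 75th percentile for Sub1, Cd79a and the 3 called genes on each resting array, with the group mean (bar) and SD (line), n = 3. Levels compare within a gene only. Dock2 lies between 1.87 and 2.11 in control and between -0.34 and -0.07 in knockout cells, and Hmox1 and Tbxas1 are higher on every knockout array.

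Hmox1 encodes haem oxygenase, which opens the haem ring and is abundant in red pulp macrophages. It read 1.67, 1.88 and 2.03 in control and 3.57, 3.75 and 3.72 in knockout cells. All knockout arrays were higher, and Hmox1 rose by 1.82 ± 0.22 (SE, 3.54-fold, limma adjusted p = 0.0417), while its second probe was 1.48 higher. Tbxas1 encodes thromboxane synthase, which turns prostaglandin H into thromboxane in platelets and macrophages. It read -1.23, -0.91 and -0.83 in control and 0.69, 1.1 and 0.59 in knockout cells. It rose by 1.78 ± 0.20 (3.44-fold, adjusted p = 0.0400), and was also higher after stimulation (1.59, adjusted p = 0.00522).

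The direction of both rises held in every alternative, from 1.22 to 2.24 for Hmox1 and from 1.15 to 2.14 for Tbxas1, but the calls were fragile. Hmox1 lost its call in 13 of 24 alternatives and Tbxas1 in 12. Both were lost without control resting replicate 1 (limma adjusted p = 0.262 and 0.230), control resting replicate 2 (0.140 for each), control resting replicate 3 (0.0720 and 0.0677), knockout resting replicate 1 (0.163 and 0.145) or knockout resting replicate 2 (0.375 and 0.274). Both were also lost without control stimulated replicate 1 (0.0657 for each) or replicate 3 (0.0727), or knockout stimulated replicate 1 (0.0819) or replicate 3 (0.0944), arrays that enter only through the spread. Hmox1 alone was lost without knockout resting replicate 3 (0.0560).

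The bases upstream of Dock2 and Tbxas1, both called and both active in blood cells, are shown from RefSeq (GRCm38.p6), 250 bases up to the start of transcription, 5′ to 3′ in the direction of the gene. Dock2 lies at chr11:34783906-34784155 on the minus strand and Tbxas1 at chr6:38918736-38918985 on the plus strand. Capitals mark GAGGAA, the core of the box bound by the myeloid and B-cell factor PU.1, on either strand.
Dock2: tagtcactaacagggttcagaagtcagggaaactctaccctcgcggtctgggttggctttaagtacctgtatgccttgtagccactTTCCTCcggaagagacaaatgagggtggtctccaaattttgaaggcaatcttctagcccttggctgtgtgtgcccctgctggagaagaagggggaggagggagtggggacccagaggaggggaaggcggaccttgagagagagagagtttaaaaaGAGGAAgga
Tbxas1: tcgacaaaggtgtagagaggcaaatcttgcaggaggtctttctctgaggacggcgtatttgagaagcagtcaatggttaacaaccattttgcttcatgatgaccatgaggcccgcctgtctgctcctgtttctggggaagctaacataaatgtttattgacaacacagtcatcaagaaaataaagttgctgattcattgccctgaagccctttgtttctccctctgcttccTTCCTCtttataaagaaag
Both windows hold the motif, Dock2 at 2 places and Tbxas1 at 1. Of all 32851 windows of this length 23.3% hold it, so a match is common and is only a description. The RefSeq table has no entry for Hmox1.

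Genes of haem and iron handling lay on both sides. Of 23 tested, Hmox1 was the 1 called. Among the 23, 6 lay wholly above (9.73% over all features) and 4 wholly below (26.7%). The median change was -0.04, against -0.21 over all features. The 6 above were Hmox1, Slc40a1, Slc11a1, Trf, Srxn1 and Spic. Slc40a1, the iron exporter ferroportin, read 0.58, 0.99 and 0.78 in control and 2.51, 2.85 and 2.42 in knockout cells (1.81 ± 0.41, adjusted p = 0.158). Trf (transferrin, 1.73), Slc11a1 (a phagosome metal transporter, 1.45) and Spic (the transcription factor of red pulp macrophages, 1.15) were also higher on every knockout array. Srxn1, an enzyme that repairs oxidised peroxiredoxin, was 1.14 ± 0.18 higher (adjusted p = 0.0948). The haem-linked genes Hmox2, Blvra and Blvrb, whose products are made in many cells, gave -0.36, -0.04 and -0.27, and after quantile normalization -0.03, 0.22 and 0.07.

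Of 18 tested genes of prostaglandin and leukotriene metabolism, 8 lay wholly above (9.73% over all features) and 2 wholly below (26.7%). The median was 0.65 against -0.21 over all features. After quantile normalization 6 lay above (7.59% over all features) and 0 below (14.2%), with a median of 0.28. Features of the list's median brightness, in bin 5 of 10, had a median of -0.09. The list lay 0.37 from the medians of its genes' bins. Ptgs1, the constitutive cyclooxygenase upstream of thromboxane synthase, read -1.09, -0.96 and -0.77 in control and 0.40, 0.94 and 0.57 in knockout cells (1.57 ± 0.38, adjusted p = 0.161). Alox5ap, the helper protein of 5-lipoxygenase, was 0.78 higher. The thromboxane receptor Tbxa2r overlapped between the groups (-0.23).

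Macrophage markers were mostly higher in knockout cells, though no single one passed the threshold (adjusted p 0.0954 to 0.739). Of 20 tested, 16 lay wholly above and 0 below, where 9.73% of all features lay above, and their median change was 1.48 (1.62 after quantile normalization, with 17 above). Their summed level, as log2, was 5.75 to 6.05 on control arrays and 6.81 to 7.30 on knockout arrays. The shift was 1.64 on slide 1 and 1.22 on slide 2, and 1.34 without control replicate 1.

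C1qb, a chain of the first complement component made by macrophages, read 0.17, 0.15 and 0.68 in control and 1.71, 1.87 and 1.92 in knockout cells (1.50 ± 0.24, adjusted p = 0.0954). C1qa and C1qc were 1.85 and 1.76 higher. Adgre1, an adhesion receptor by which mouse macrophages are identified, read 0.31, 0.51 and 0.68 in control and 1.83, 2.29 and 1.73 in knockout cells (1.45 ± 0.34). Vcam1 (adhesion, 1.91), Csf1r (the receptor for M-CSF, 1.60), Axl (uptake of dead cells, 1.81) and Mrc1 (the mannose receptor, 2.10) were higher on every knockout array as well. Marco overlapped (1.05), Vsig4 gave -0.68 with overlap, and Timd4 was well above background on no resting array. In bulk RNA, more cells of a type and more RNA per cell cannot be told apart, and the part of macrophage RNA in the rises of Hmox1 and Tbxas1 was not tested.

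Markers of other cells gave a mixed picture, and none passed the threshold. For 19 tested monocyte and neutrophil genes the median was 1.35, with 8 wholly above (9.73% over all features) and 2 below, but it was 0.52 on slide 1 and 1.59 on slide 2. Fcer1g (1.37 ± 0.26, adjusted p = 0.144) and Fcgr4 (1.61) parted the groups. The neutrophil gene S100a8 did not, at 1.75, 3.55 and -0.84 in control and 3.99, 1.46 and 4.07 in knockout cells. Erythroid genes had a median of 1.58 over 16 tested, with 6 above and 1 below, and 0.86 on slide 1 against 2.07 on slide 2. The globin Hba-a1 read 5.62, 5.41 and 1.50 in control and 5.20, 7.23 and 6.77 in knockout cells, so control replicate 3 stood low and the groups overlapped. The summed level of the monocyte and neutrophil markers overlapped, at 8.03 to 8.32 in control and 7.75 to 8.19 in knockout cells, as did that of the erythroid markers (6.91 to 8.06 and 7.67 to 8.85). Dendritic cell markers had a median of 0.97 over 13, with 8 above (0.88 with 7 above after quantile normalization), and T-cell markers one of 0.60 over 20, with 6 above (0.31 with 5). The summed levels of both overlapped between the groups, at 7.85 to 8.70 and 7.63 to 8.52 for dendritic cells and 6.85 to 7.03 and 6.83 to 7.08 for T cells, control first. Platelet markers had a median of 0.69 over 15, but 0.23 on slide 1 and 1.29 on slide 2, with 7 above and 11 without control replicate 1. Of 12 NK markers the median was 0.70, 0.25 on slide 1 and 1.27 on slide 2. Of the 4 NK genes above, Gzmb, Klra7 and Klrb1c were above background on no control array and on 1, 2 and 1 knockout arrays, and 1 NK gene lay above after quantile normalization. Stromal and endothelial markers had a median of -0.30 over 7, and 3 mast cell markers one of 0.32 (-0.03 after quantile normalization).

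Genes of marginal zone cells and of the Notch pathway lay mostly below in knockout cells. Of 21 listed, 18 were tested, 12 lay wholly below and 0 above, where 26.7% of all features lay below, and the median change was -0.60 against -0.21 over all. Features of the brightness of this list, in the eighth of 10 bins, had a median of -0.36 with 52.8% wholly below, and the list lay -0.24 from the medians of its genes' bins. After quantile normalization 6 lay wholly below and 1 above and the median was -0.29, against 14.2% of features and -0.05. Without control replicate 1 the median was -0.42 with 12 below. None passed the threshold, the smallest adjusted p being 0.140 (Dtx1).

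The surface receptors led. Cr2 read 7.57, 7.21 and 6.63 in control and 5.24, 5.52 and 5.38 in knockout cells, a change of -1.76 ± 0.38 (3.38-fold, adjusted p = 0.158), and a second probe gave -1.78. S1pr3, a receptor for sphingosine 1-phosphate typical of marginal zone cells, read 3.23, 2.43 and 1.91 in control and 0.26, 0.90 and 0.30 in knockout cells (-2.03 ± 0.48, adjusted p = 0.161). S1pr1, which holds these cells at the sinus, was -0.83 lower (-0.51 after quantile normalization). In these genes control replicate 1 was the highest array, and the groups stayed apart without it, Cr2 at -1.54 and S1pr3 at -1.68. Cd9, also high on marginal zone cells, overlapped, with a change of 0.02.

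Some targets of Notch were lower on every knockout array. Dtx1, which encodes the Notch regulator Deltex1, read 6.75, 6.21 and 5.78 in control and 4.83, 5.01 and 4.73 in knockout cells (-1.39 ± 0.26, 2.62-fold, adjusted p = 0.140; -1.05 after quantile normalization). Hes5, a repressor that Notch switches on, read 3.03, 2.92 and 2.44 in control and 1.60, 1.87 and 1.74 in knockout cells (-1.06 ± 0.23, adjusted p = 0.158). Hes1, its relative, gave -1.20 (adjusted p = 0.232). The receptor Notch2 was 4.72 ± 0.27 in control and 4.17 ± 0.21 in knockout cells (-0.55, and -0.21 after quantile normalization). Rbpj and Maml1, the nuclear partners of Notch, gave -0.24 and -0.08 after quantile normalization. Tm6sf1 and Dph5, other genes of marginal zone cells, gave -0.92 and -1.12.

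For Cr2 and Hes5 the 250 bases upstream are shown from RefSeq (GRCm38.p6). These 2 genes were picked because both windows hold the core motif of RBPJ, the protein that brings Notch to DNA. A match of bases does not show binding and is only a description. Cr2 lies at chr1:195176720-195176969 on the minus strand and Hes5 at chr4:154960673-154960922 on the plus strand. Capitals mark GTGGGAA on either strand.
Cr2: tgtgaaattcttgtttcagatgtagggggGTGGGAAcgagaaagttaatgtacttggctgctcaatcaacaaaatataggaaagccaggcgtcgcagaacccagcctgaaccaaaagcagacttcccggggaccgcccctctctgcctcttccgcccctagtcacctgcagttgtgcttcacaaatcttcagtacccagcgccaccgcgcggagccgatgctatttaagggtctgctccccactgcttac
Hes5: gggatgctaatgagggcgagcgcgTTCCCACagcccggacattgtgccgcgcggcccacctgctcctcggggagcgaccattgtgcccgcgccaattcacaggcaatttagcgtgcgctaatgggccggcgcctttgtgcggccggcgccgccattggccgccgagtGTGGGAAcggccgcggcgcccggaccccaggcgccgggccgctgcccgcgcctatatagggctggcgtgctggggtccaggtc
Cr2 holds the motif at 1 place and Hes5 at 2. It stands in 3 of the 16 listed genes with an entry (Cd9, Cr2 and Hes5), or 18.8%, and in 5.42% of all windows. A listed gene counts if any of its windows matches, whereas the 5.42% counts single windows, so the shares are unlike measures. Dtx1, S1pr3 and Notch2 have no match in this window. The table has no entry for Hes1 or S1pr1.

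**Figure D3:**
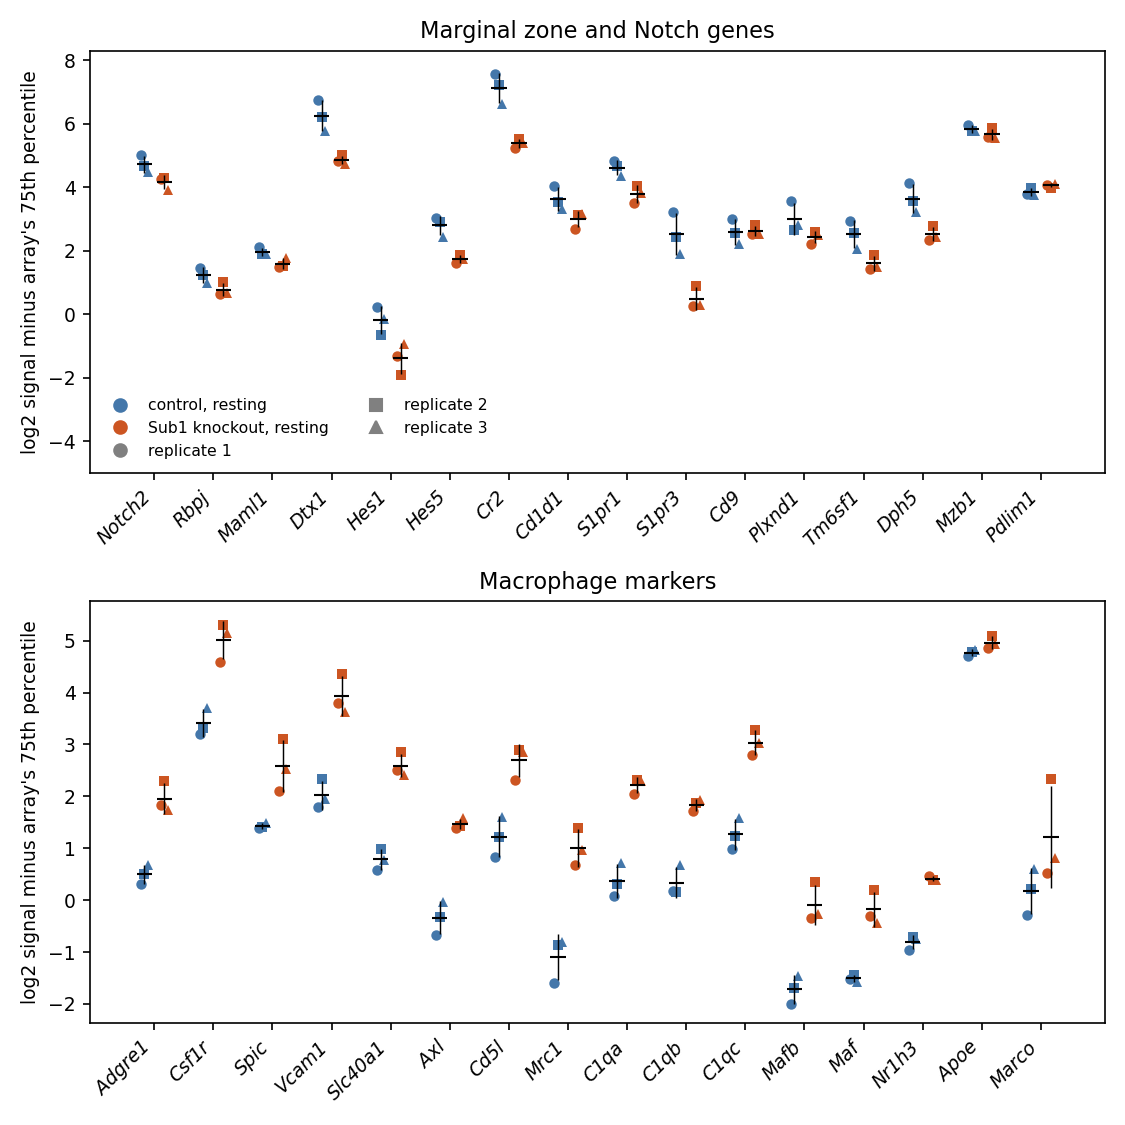
Log2 signal relative to the array's 75th percentile on each resting array for 16 marginal zone and Notch genes (top) and 16 macrophage markers (bottom), with group mean and SD, n = 3. Levels compare within a gene only. Cr2, S1pr3, Dtx1 and Hes5 are lower on every knockout array, while Cd9 and Mzb1 overlap. C1qa, C1qb, Adgre1 and Slc40a1 are higher on every knockout array.

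Of 14 B-cell markers none passed, 12 lay wholly below and 0 above, and the median was -0.59 (-0.24 with 8 below after quantile normalization). Over all features 26.7% lay wholly below, and in the brightest 10%, where the list's median level falls, 51.1% with a median of -0.38. Their summed level, as log2, was 10.90 to 11.16 on control arrays and 10.43 to 10.65 on knockout arrays, while that of the macrophage markers went the other way. Beside Cd79a and Cr2, Cd22 (an inhibitory lectin, -0.99), Bank1 (an adaptor of the B-cell receptor, -0.93) and Ralgps2 (-0.90) were lowest, and kept -0.67, -0.63 and -0.58 after quantile normalization. Fcer2a (CD23, a marker of follicular cells) gave -0.59 and Ms4a1 (CD20) -0.42 (-0.26 and -0.04 after quantile normalization).

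No gene of signalling, antigen presentation or homing passed the threshold. Over all features 26.7% lay wholly below and 9.73% above, and 14.2% below after quantile normalization with a median of -0.05. In bins 8, 9 and 10 of 10 by brightness, where these lists' median levels fall, 52.8%, 53.4% and 51.1% lay below. The medians of those bins were -0.36, -0.36 and -0.38, so the counts of these lists are to be read against them. Of 20 genes of the B-cell receptor complex and its first kinases 10 lay wholly below and 0 above, with a median of -0.42 (-0.18 after quantile normalization). Of 19 coreceptors and inhibitory receptors 12 lay below and 1 above (Cd5, 0.79), with a median of -0.52 (-0.18). MHC class II genes had a median of -0.61 over 14 tested, with 8 below (-0.25 after quantile normalization, with 4 below). H2-Oa and H2-Ob, the chains of the DO molecule that restrains peptide loading in B cells, gave -0.81 and -0.68 (-0.43 and -0.34 after quantile normalization). Of 22 homing receptors and integrins 11 lay below and 3 above, with a median of -0.50, which became 5 below, 4 above and -0.16 after quantile normalization. Ccr6 (6.42 ± 0.07 in control, 5.39 ± 0.18 in knockout), Gpr174 and Cxcr5 gave -1.03, -0.82 and -0.66 (-0.64, -0.52 and -0.29 after quantile normalization). Macrophages also carry MHC class II, and the part of the cell mixture in these values was not tested.

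Of 26 B-cell transcription factors none passed, 2 lay above (9.73% over all features) and 13 below (26.7%), with a median of -0.34. After quantile normalization 5 lay above (7.59% over all features) and 5 below (14.2%), with a median of -0.04. Features of this brightness, in the ninth of 10 bins, had 53.4% wholly below. Bcl11a (-0.67, and -0.36 after quantile normalization) and Mef2c (-0.91, and -0.63), which B cells need to develop and respond, were lower on every knockout array, and Id2 (0.90), an inhibitor of E proteins, was higher. Of 12 early B-cell and progenitor genes none passed, 7 lay above (9.73% over all features) and 1 below, with a median of 0.79 (0.73 after quantile normalization). Lef1, a factor of early B and of T cells, read -0.85, -0.34 and -0.70 in control and 0.78, 0.59 and 1.20 in knockout cells (1.49 ± 0.24, adjusted p = 0.0965). Cd93, on immature B cells, read 1.89, 1.72 and 2.01 in control and 2.66, 3.02 and 2.80 in knockout cells (0.95 ± 0.29, adjusted p = 0.208). Sox4 and Kit were 1.34 and 1.29 higher. Some of these genes are not peculiar to B cells, and T-cell markers had a median of 0.60.

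Tnfrsf1a, the main receptor for TNF, read -0.31, -0.20 and -0.88 in control and 0.91, 1.08 and 0.89 in knockout cells (1.42 ± 0.20, adjusted p = 0.0823) and was higher after stimulation as well (2.11, adjusted p = 0.00152). Plasma cell genes had a median of 0.17 over 19 tested, with 3 above (9.73% over all features) and 2 below (26.7%). Within it Jchain, which joins IgM and IgA units, read 5.58, 5.20 and 5.85 in control and 6.87, 7.24 and 6.84 in knockout cells (1.44 ± 0.44, adjusted p = 0.206). Tnfrsf17, the BCMA receptor of plasma cells, was 2.05 higher from a dim level, with 1 of 3 control arrays above background. The metallothioneins Mt1 and Mt2, which bind zinc and copper, were 1.78 ± 0.29 (adjusted p = 0.0954) and 1.46 ± 0.33 (0.158) higher; both were chosen after their values were seen.

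Lists of basic cell functions had medians near that of bright features. Ribosomal protein genes had a median of -0.43 over 33 tested, with 18 wholly below and 0 above, and -0.05 after quantile normalization. In the brightest 10%, where the ribosomal median level falls, 51.1% of features lay wholly below with a median of -0.38, against 26.7% over all features. Proteasome genes went from -0.28 to 0.09, oxidative phosphorylation from -0.32 to 0.05, general transcription and Mediator from -0.35 to -0.03, and chromatin compaction and PC4 partners from -0.39 to -0.04. Genes of single-strand DNA binding and repair, the biochemical field of PC4, had a median of -0.42 over 30, with 19 below and 1 above. After quantile normalization the median was -0.13 with 9 below, against 14.2% of all features. Features of the list's median brightness, in bin 7 of 10, had a median of -0.33 with 40.9% wholly below. The list lay -0.08 from the medians of its genes' bins. Its 1 gene above was Cdkn1a, the cell-cycle brake p21, at 0.94 ± 0.25 (limma adjusted p = 0.183). Proliferation (-0.28, then -0.13) and quiescence genes (-0.34, then -0.08) had the same sign as each other. Without control replicate 1 the proliferation list went from 6 to 20 of 27 wholly below and to a median of -0.44. Over all features the share below went from 26.7% to 28.9%. Interferon response genes had a median of -0.11 over 30 (0.11 after quantile normalization) and the unfolded protein response one of -0.12 (0.21), so the sign of these lists hung on the scaling.

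**Figure D4:**
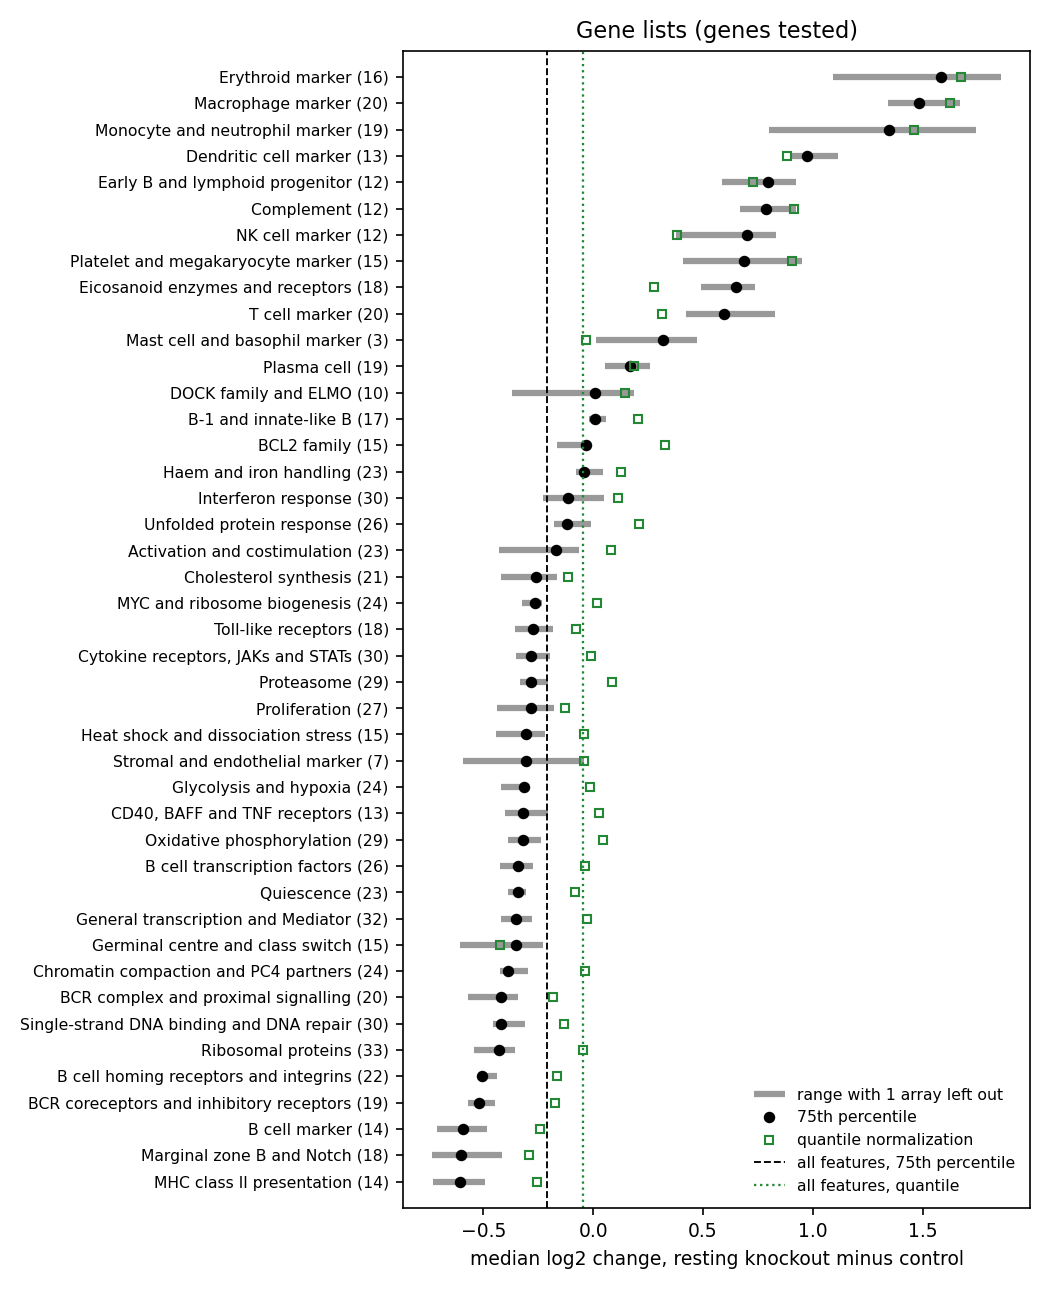
Median log2 change of the tested genes of the lists (number tested in brackets), resting knockout minus control, with the 75th percentile (dots), the range when 1 array is left out (bars) and quantile normalization (squares). Vertical lines give the medians over all features, -0.21 and -0.05. Macrophage and erythroid markers lie furthest to the right, marginal zone and MHC class II genes furthest to the left.

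The largest changes were taken from genes without overlap, with an unadjusted limma p under 0.01 and the brighter group well above background on all 3 arrays. Of 12295 named genes, 237 met this as higher and 284 as lower. Of 10686 probes with no gene name, 217 and 203 did. Dock2, S1pr3 and Cr2 were among the 10 largest decreases. Rap1gap, which turns off the integrin-controlling GTPase Rap1, read 2.24, 1.37 and 1.20 in control and -0.51, 0.09 and -0.35 in knockout cells (-1.86 ± 0.33, adjusted p = 0.117). Crip3, a LIM-domain protein, read 0.67, 0.50 and 0.43 in control and -1.81, -1.66 and -0.72 in knockout cells (-1.93 ± 0.34, adjusted p = 0.116). Slc29a4, a transporter of monoamines above background on 1 of 3 knockout arrays, gave -1.72 ± 0.29 (adjusted p = 0.105). Others were dim in knockout cells: BC025920 (-1.82) and Afp (-1.70) were above background on 1 and 2 of 3 knockout arrays, and Hbb-bh1 on none, which makes it at least 2.14-fold lower.

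The 10 largest increases, 2.72 to 3.89, were all dim in controls, none having all 3 control arrays above background. Try5 and Try4, trypsins of the exocrine pancreas, led. Try5 read -0.17, -4.32 and -3.26 in control and 1.80, 1.68 and 0.43 in knockout cells (3.89 ± 0.90, adjusted p = 0.161), so the control arrays themselves spread widely, with replicate 1 the highest. Of 17 exocrine pancreas genes, picked after their values were seen, 14 lay wholly above, where 9.73% of all features did. Changes of the 17 ran from 0.77 to 3.89 and limma adjusted p from 0.161 to 0.333. Amy2a5 (amylase, 3.62), Pnlip (lipase, 2.69) and Ctrb1 (chymotrypsinogen, 2.02) were among them, and 14 of the 17 were highest on control array 1 among controls. After stimulation their changes ran from -1.12 to 0.92. Genes picked by their values mostly lie above through that choice, so the count of 14 is a description only. Try5 and Try4 were above background on 1 of 3 control arrays, so of the resting groups only knockout could keep them. The part of pancreatic RNA in other results was not tested. Of the other large increases Cebpe, a factor of granulocyte development, was 2.79 higher, and Kcnu1, 4930584F24Rik, Bex6 and 4930519G04Rik, above background on no control array, were at least 4.6, 3.41, 3.29 and 3.01-fold higher. Zan, Pcgf2 and Olfr1090 were 2.74 to 2.79 higher.

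One locus with no gene name stood out. The array's annotation gives 5 probes to a noncoding transcript at chr13:34693404-34717987 (mm9, minus strand). All 5 lay wholly below in knockout cells, with changes from -2.44 to -1.24 (median -1.73) and adjusted p from 0.06 to 0.175 with every probe tested on its own. The probe with the largest change read 1.73, 1.28 and 1.55 in control and -1.44, -1.27 and -0.07 in knockout cells, and was lower after stimulation too (-1.98). The 5 probes share a transcript and are not separate evidence. Of other unnamed probes A_55_P1982225 and A_30_P01025729 were 3.20 and 3.17 higher, each above background on 1 of 3 control arrays, and A_55_P2126557 gave -2.07.

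Counts of calls depended on the settings, and the genes called in most of them were chosen for mention after their values were seen. Of named genes, 20 passed in at least 5 of 8 alternatives, 4 lower and 16 higher. These 8 leave out the 6-array fit, median scaling, the series matrix, no filter and the 12 fits without 1 array. Those left out called 0 to 12 features. The 8 include the replicate block, though same-numbered resting arrays of the genotypes were not paired. Over all alternatives (23 or 24 a gene) Dock2 passed in 22, Tbxas1 in 12, Hmox1 in 11, Cd79a and Tnfrsf1a in 7, and the other 15 in 5 or 6. The lower ones were Dock2, Cd79a, Slc29a4 and Pxdc1 (-1.65 to -1.29). The higher ones held, with Hmox1 and Tbxas1, the myeloid genes Fcer1g, C1qb and Clec4n (1.33 to 1.85). They also held Tnfrsf1a, Lef1, Mt1, Srxn1, Dhrs3, a retinal reductase (0.85 to 1.46), and AA467197 (2.48 to 2.83). The rest were Arhgap22, C1qtnf12, Drc1, Kcnj10 and Specc1.

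The resting changes were then set beside those after 72 h of stimulation, where 796 features passed (3.46%). The difference between the states passed for 33 features (0.144%), in a fit that took resting and stimulated arrays as independent. Like its resting counterpart, control stimulated replicate 1 had Y-linked signal (Ddx3y 1.62, Eif2s3y 3.03) and read -3.91 and -3.76 for Xist. Same-numbered arrays of the 2 states may thus share a source, which that fit leaves out. Of the genes named here 3 were among the 33. Mt1 was 1.78 higher in resting and -0.96 lower in stimulated knockout cells (difference -2.74, adjusted p = 0.0427). Jchain was 1.44 higher in resting cells and -2.45 lower after stimulation (difference -3.89, adjusted p = 0.0497). Afp, a dim gene here, went the other way (difference 3.25, adjusted p = 0.0333).

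Macrophage markers were higher in both states, 11 of 20 passing after stimulation with a median of 1.78. C1qc, at 1.76 in resting cells, reached 4.01 (adjusted p = 0.00261), and the difference between the states did not pass (adjusted p = 0.208). The marginal zone and Notch list had a median of 0.04 after stimulation, with 1 of 18 passing (Mzb1, -1.46). Cr2 was 0.11 and S1pr3 0.59 there, and for neither did the difference between the states pass (limma adjusted p = 0.211 and 0.167). In stimulated control cells Cr2 read -0.44, -1.54 and -0.18 and S1pr3 -1.34, -2.32 and -0.42, far below their resting levels. Both changes there come from dim signal and cannot say whether the resting difference was lost. For Dtx1 and Hes5 the changes after stimulation were 0.04 and 0.48, with adjusted p of 0.167 and 0.0995 for the difference. Icosl, a costimulatory ligand, gave -0.69 (-0.36 after quantile normalization) in resting and 1.50 in stimulated cells (adjusted p = 0.0672 for the difference).

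**Figure D5:**
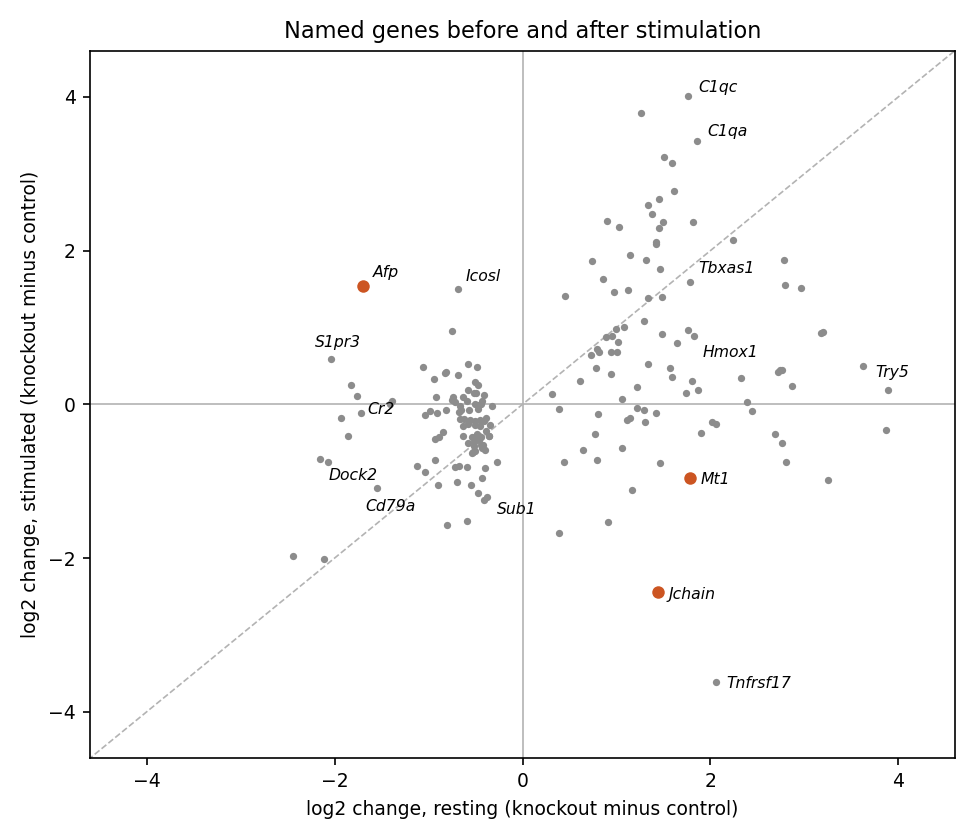
Log2 change, knockout minus control, of the named genes in resting (x axis) and stimulated cells (y axis), each point 1 gene; the dashed line marks equal change. Large points (Afp, Jchain and Mt1) are those whose 2 changes differ at an adjusted p under 0.05. C1qa and C1qc are higher in both states. S1pr3 and Cr2 lie left of 0 near no change after stimulation, where both are dim.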

How the data were processed

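Cy3-labelled amplified RNA was hybridised to 12 one-colour Agilent mouse arrays, per the labels. The authors deposited linear intensities (background-subtracted processed signal), made with Agilent Feature Extraction 10.7.3.1 per the file headers (version 9.1 per the submitters' processing notes). The deposited series matrix repeats these intensities within 0.497%. Scanner files hold 62976 spots, 3671 of them controls.

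Outlier spots were set to missing, log2 was taken relative to the 75th percentile of non-control spots, and replicate spots were averaged. A probe was kept where 1 group or more had it well above background on each of 3 arrays. Accessions were named through RefSeq (GRCm38.p6; 26413 of 55681 probes), and the brightest probe stood for a gene. limma 3.58.1 (R 4.3.3) was fitted to all 12 arrays with 4 group means (8 residual and 2.55 prior degrees of freedom), with Benjamini-Hochberg adjustment over all 22981 features. All adjusted p-values are limma's. The fit was run on simulated data with independent normal noise. That simulation held no slide or brightness effect, so it does not bear on them. The precision is limited by 3 arrays per group. No spot was saturated.

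Named genes are Sub1, Cd79a, called genes, the 10 largest changes each way among genes without overlap, above background on all arrays of the brighter group and at an unadjusted p under 0.01, up to 4 genes per list by p, and the 2 largest unnamed changes each way. Some named items and 1 list are not reported here. List members outside this rule are named for their role or level, after their values were seen. Members and the 44 lists (821 genes tested) were chosen with earlier results of these data known. "At least" folds take the dim group at background. Motifs were sought on both strands of 250 bases. Same-numbered resting arrays of the genotypes were not paired (correlations of their deviations -0.12, 0.20 and 0.39). Alternatives were a replicate or slide block, 6 arrays, other scalings, normexp on the median signals (offset 50), the series matrix, filters, single probes, trend and robust fits, array weights, leaving out each array and single slides. Counts of genes without overlap under quantile normalization and without control replicate 1 were added after the data were seen.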

Additional observations from a re-analysis of the deposited data

Results flagged for a closer look

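Among the named genes, 3 differed in their response to the knockout between stimulated and resting cells in limma's test of the difference itself. For Afp the change after stimulation exceeded the resting change by 3.25 (adjusted p = 0.0333). For Jchain the change after stimulation was below the resting change, with a difference of -3.89 (adjusted p = 0.0497). For Mt1 the difference was -2.74 (adjusted p = 0.0427). Afp was above background on 2 of 3 resting knockout arrays.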

How the results depend on the processing

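The count of 3 called features became 41 with the replicate block (28 higher, 13 lower), 12 with the slide block, 0 on the 6 resting arrays (5407 at an unadjusted p under 0.05), 34 with quantile normalization, 51 with the percentile over detected probes, 87 with normexp (59 higher, 28 lower), 0 without a filter (5012 at an unadjusted p under 0.05), 24 with a filter on the resting arrays, 1.1e+02 with trend and robust fits (43 higher, 64 lower), 73 with array weights (51 higher, 22 lower) and 1 to 12 when 1 array was left out. It stayed at 3 with median scaling (all 3 lower), the series matrix and single probes. Same-numbered resting arrays of the genotypes were not paired, so the block's 41 is given for completeness. Whether the numbers link resting and stimulated samples is not given, though control replicate 1 had Y-linked signal in both states. For the difference of the knockout effect between stimulated and resting cells, 33 features became 81 with quantile normalization and 33 with the replicate block.

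Gene changes kept direction and side of the threshold in 4973 comparisons, gained a call in 110, lost one in 27 and reversed in 17. Reversals under median scaling were Cd44 (-0.17), Bbc3 (-0.22), Ifih1 (-0.16), Creld2 (-0.22) and Hdc (-0.29). Hdc also reversed with quantile normalization (-0.031) and on slide 1 (-0.10). Quantile normalization and the percentile over detected probes reversed Atp5a1 (0.0016 and 0.0027), Psme2 (0.055 and 0.032) and Syvn1 (0.11 and 0.083). Ccl19 reversed without a filter (0.61) and on slide 2 (0.13), and Xist without control resting replicate 1 (-0.72, against up to 2.09 without another array) and on slide 2 (-0.62). None of these had been called. Median scaling and the percentile over detected probes shift all genes alike (median change from -0.21 to -0.81 and to 0.14), so their reversals follow by construction. For the other settings the cause was not tested. Signal over background limits all genes that are dim in 1 group.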
